A study of Caenorhabditis elegans with 4 samples.

Results

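The EFL-1 sites on chromosome II of Caenorhabditis elegans were the 848 peaks that the authors' combined list places on that chromosome, out of 5334 peaks in all, or 15.9%. They were mapped by ChIP-seq, in which chromatin is precipitated with an antibody and the DNA fragments bound by a protein are sequenced. The ChIP group had 2 libraries and its input group, sheared chromatin that was not precipitated, had 2 libraries. All 4 came from whole wild-type hermaphrodites harvested as L1 larvae, the first larval stage, after growth at 26 degrees C, so every cell type of the larva was mixed. The labels give the strain as N2 and as "DevStageWorm:L1 26dC:MS:1", and they differ on what was precipitated. The series title speaks of EFL-1::GFP and the protocol of an anti-GFP antibody against a tagged factor, whereas the sample names read "EFL-1_Ab" with a wild-type genotype. Input values were not analysed here other than through the authors' peak lists, and the samples held no precipitation from a control strain or antibody.

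EFL-1 is one of the worm's E2F-family transcription factors. It binds DNA together with its partner DPL-1, and with the retinoblastoma protein LIN-35 it takes part in the DREAM complex, which holds cell cycle genes and, in somatic cells, germline genes in check. Worms that lack LIN-35 arrest as young larvae when raised at high temperature. Worm autosomes have no single centromere; their centres are known to be gene-rich and to recombine little, while their outer arms recombine more and hold more repeats and fast-evolving gene families.

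Each peak carries 1 measurement, a q-value, and peak strength below means −log10 of the deposited q-value, so that larger is stronger. A q-value depends on sequencing depth as well as on enrichment, and depth is unknown for these libraries. Replicate 1 listed 515 peaks on chromosome II out of 3126, and replicate 2 listed 739 out of 4540. The labels do not say whether the replicates were grown as separate cultures, and their differences may be technical. Positions refer to the WormBase WS220 build. No gene positions or sequence of that build were used here, so sites are named by position, with no gene, exon or motif.

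The first question was how the sites lay along the chromosome. Its span, from position 1 to the last peak end at 15263473, was divided into a left end (the first 25%, up to position 3815868), a centre (the middle 50%) and a right end (the last 25%, from position 11447605). The left end was sparsely occupied. It held 152 peaks, the centre 459 and the right end 237. Density in the combined list was 39.8 peaks per Mb in the left end, 60.1 in the centre and 62.1 in the right end. Both replicates had the same order of left end below the other parts: replicate 1 had 20.7, 38.3 and 37.7 peaks per Mb from left to right, and replicate 2 had 33.5, 52.8 and 54.5. The left end thus had 0.64 times as many peaks as the right end, which has the same length (152 against 237; exact binomial test, two-sided, adjusted p = 0.00021 over 11 tests within the chromosome). The ratio was 0.55 in replicate 1 and 0.62 in replicate 2. The share of bases covered by peaks was also lowest in the left end, at 1.96%, against 3.54% of the centre and 3.31% of the right end.

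Neighbouring peaks are not independent, and this call rests on them. Where peaks lay less than 10 kb apart, runs were reduced to their strongest peak, after which 90 peaks were left in the left end and 113 in the right end, a ratio of 0.80 that did not pass the test (exact binomial test, adjusted p = 0.336). This thinning kept 59.2% of left-end peaks and 47.7% of right-end peaks.

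**Figure D1:**
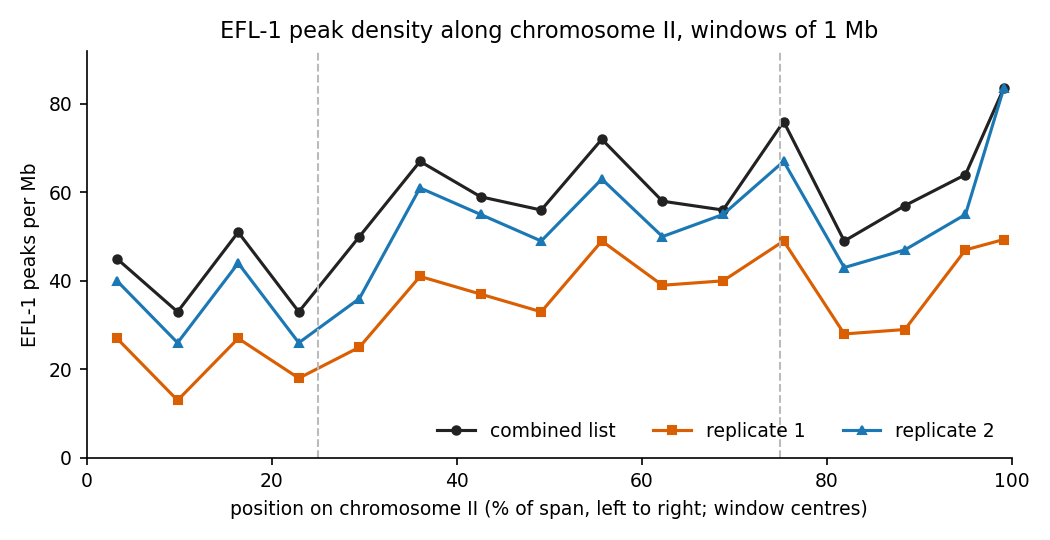
EFL-1 peaks per Mb (y axis) in windows of 1 Mb along chromosome II (x axis, window centres as % of the span; the last window is shorter than 1 Mb), for the combined list and each replicate list; dashed lines mark the borders of the left end, centre and right end. The first 4 windows hold 33 to 51 combined peaks, and the windows from 5 to 9 Mb hold 56 to 72.

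In windows of 1 Mb, the low density of the left end did not come from 1 stretch alone. The first 4 windows held 45, 33, 51 and 33 combined peaks. The other full windows held 49 to 76 peaks, the fullest being the window from 11 to 12 Mb with 76. The windows from 1 to 2 Mb and from 3 to 4 Mb were also the emptiest in both replicates, with 13 and 18 peaks in replicate 1 and 26 in each in replicate 2. By the combined list the window from 1 to 2 Mb also held the weakest peaks, with a median combined strength of 5.38 against 28.6 in the window from 10 to 11 Mb. Its median was also the lowest in replicate 2, at 6.01, but not in replicate 1, where it was 8.30 against 6.37 in the window from 8 to 9 Mb. In the window from 1 to 2 Mb 39.4% of peaks were found in both replicate lists, against 71.9% in the window from 14 to 15 Mb. These were the lowest and highest shares among the windows, and the share over the chromosome was 58.7%. The borders are fixed shares of the span. The last peak of the left end lay at 3811561 to 3812095 (strength 2.10) and the first of the centre at 3815414 to 3816866 (28.3). The last of the centre lay at 11440056 to 11440635 (104.96) and the first of the right end at 11452755 to 11453884 (48.3).

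The centre of chromosome II held 54.1% of the chromosome's peaks (459 of 848, 95% interval 50.7 to 57.5) on 50% of the span, which did not pass the test after adjustment (exact binomial test, p = 0.0178, adjusted p = 0.0651). In replicate 1 the share was 56.7%, which passed (exact binomial test, adjusted p = 0.0148). In replicate 2 it was 54.5%, which did not (exact binomial test, adjusted p = 0.0597). The 4 other autosomes together had 58.3% of their peaks in the centre (2291 of 3930, 56.7 to 59.8), from 53.6% on IV to 64.4% on V. The difference of 4.17 percentage points between chromosome II and the others did not pass the test (Fisher's exact test, two-sided, adjusted p = 0.132 over 5 tests).

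As labelled left and right, the balance between the ends differed between chromosome II and 3 of the 4 other autosomes. Which end is called left is a convention. Chromosome II was compared with each autosome separately, and each comparison still depends on that convention. The ratio of left-end to right-end peaks was 0.64 on II, 1.03 on I, 0.73 on III, 1.62 on IV and 1.41 on V. The sparser end held 152 peaks against 237 in the denser end on II, 181 against 293 on IV and 126 against 178 on V. On III it held 177 against 241, and on I 218 against 225. Whether these imbalances differed in size, whichever end was sparser, was not tested. Of the peaks in its 2 ends, 39.1% (34.2 to 44.1) of those on II lay in the left end, against 61.8% (57.3 to 66.2) on IV and 58.6% (52.8 to 64.1) on V (Fisher's exact test, adjusted p = 1.12e-10 and 7.98e-07 over 4 tests). The share on I was 50.8% (46.0 to 55.5), which also differed from II (Fisher's exact test, adjusted p = 0.00107). With 1 peak per run, the differences from IV and V passed the test and that from I did not (Fisher's exact test, adjusted p = 0.0079, 0.0212 and 0.273). Chromosome III leaned the same way as II, with 42.3% (37.6 to 47.2), and the 2 were not shown to differ (Fisher's exact test, adjusted p = 0.352). In density, the left end of II lay above that of V alone, at 39.8 peaks per Mb against 34.1 on V and 51.4 to 67.1 on the other 3. Its right end was the second densest of the 5, at 62.1 peaks per Mb against 70.0 on III and 24.1 to 58.2 on the other 3.

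**Figure D2:**
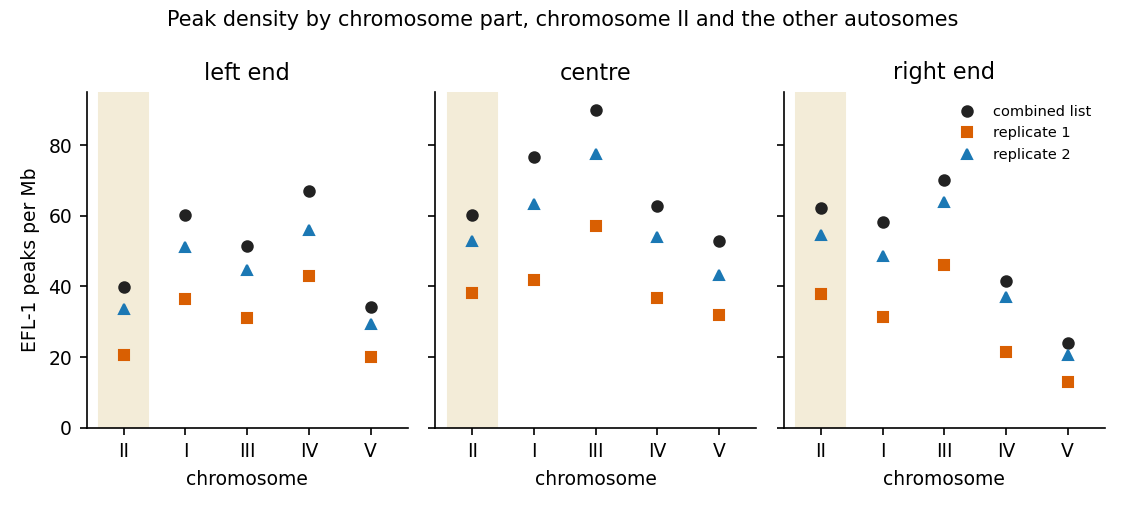
EFL-1 peaks per Mb (y axis) in the left end, centre and right end of chromosome II (shaded) and of autosomes I, III, IV and V, for the combined list and each replicate list, 1 point per list. Chromosome II stands at 39.8 combined peaks per Mb in its left end and 62.1 in its right end, whereas IV and V have more peaks in the left end.

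The strength of sites on chromosome II lay within the range of the other autosomes. Median combined strength was 16.1 on II, with the middle 50% of peaks between 5.12 and 48.3, against 14.4 on the other autosomes together. Each of those had a median of its own, the lowest being 11.5 on V and the highest 16.4 on III. In the replicate lists the medians were 13.2 on II against 12.4 on the other autosomes in replicate 1, and 15.6 against 13.4 in replicate 2. Among all combined peaks 25% are by definition in the strongest 25%. On II 230 of 848 peaks were, or 27.1% (24.2 to 30.3), against 26.8% (25.4 to 28.2) on the other autosomes, a difference of 0.35 percentage points that did not pass the test (Fisher's exact test, adjusted p = 0.831). At the cut of the 100 strongest peaks, the share on II varied by list. Chromosome II held 15 of the 100 strongest combined peaks, 26 of the 100 strongest of replicate 1 and 17 of the 100 strongest of replicate 2. Of all peaks, II held 15.9%, 16.5% and 16.3% in the same lists. Among the 500 strongest it held 18.8%, 20% and 18.8%. These shares were not tested.

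Within the chromosome, the share of strong peaks was lowest in the left end by the combined list and by replicate 2, though not by replicate 1. The strongest 25% took 29 of 152 peaks in the left end (19.1%, 13.2 to 26.2), 127 of 459 in the centre (27.7%, 23.6 to 32.0) and 74 of 237 in the right end (31.2%, 25.4 to 37.5). The left end differed from the right end by 12.1 percentage points, just outside the threshold (Fisher's exact test, p = 0.00943, adjusted p = 0.0519). In replicate 2 the shares were 19.5% in the left end, 26.3% in the centre and 31.7% in the right end. In replicate 1 they were 29.1%, 26.0% and 31.3%, so the left end was not the lowest there. From left to right, the combined list had median strengths of 11.9, 17.9 and 15.3. Replicate 1 had 13.1, 11.9 and 16.8, and replicate 2 had 10.8, 16.6 and 16.9. The imbalance between the ends varied with strength, in a steady order in replicate 2 only. When the 848 combined peaks were divided into 4 equal groups by strength, the ratio of left-end to right-end peaks was 0.85, 0.58, 0.84 and 0.38 from the weakest group to the strongest. Divided likewise, the replicate 1 peaks had ratios of 0.55, 0.74, 0.44 and 0.51, so that the strongest group did not have the lowest ratio. The replicate 2 peaks had ratios of 0.76, 0.70, 0.65 and 0.39. These ratios are descriptions and were not tested.

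**Figure D3:**
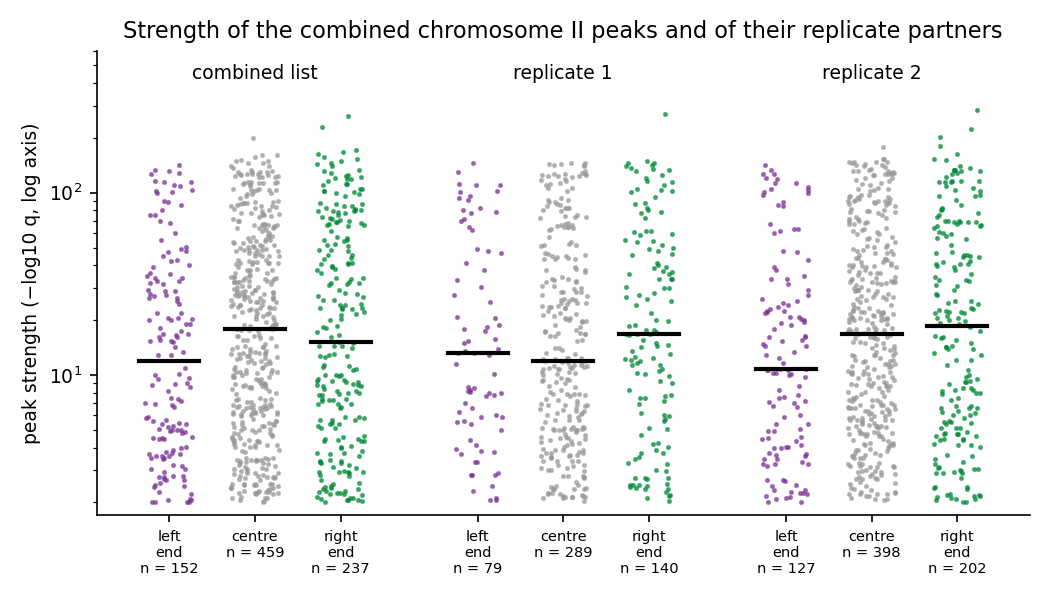
Strength (−log10 q, log axis) of the 848 combined peaks on chromosome II by chromosome part, and of the strongest overlapping replicate 1 and replicate 2 peak where there is one; each point is a peak and bars are medians. In the combined list the medians are 11.9, 17.9 and 15.3 from the left end to the right end.

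The strongest combined sites were fewest in the left end, which also held the fewest peaks. Of the 50 strongest combined peaks of the chromosome, with strengths from 122 to 263, 5 lay in the left end, 29 in the centre and 16 in the right end. From left to right the parts held 17.9%, 54.1% and 27.9% of all combined peaks of II, and the counts among the 50 were not tested. All 50 overlapped peaks in both replicate lists, as did all 212 peaks of the strongest of the 4 groups. The combined list is taken to join the same ChIP libraries, so this overlap is not independent evidence for the sites. The 10 strongest comprised 6 in the right end and 4 in the centre. They include 2 wide peaks that were several peaks in each replicate list, at 11974134 to 11980453 and 10541867 to 10550578. The strongest pieces ranked 642 and 411 in replicate 1, and 704 and 975 in replicate 2. First of the 10 was the right-end peak at 14251031 to 14252291, 1261 bp wide, whose combined strength was 263, with 269 in replicate 1 and 282 in replicate 2. It ranked 1 among all peaks of either replicate. In replicate 1 it stood far apart on the chromosome, since the next peak there had a strength of 149 and 11 peaks lay between 140 and 150. In replicate 2 the next on the chromosome were 224 and 203, so that gap was not seen there.

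The other leading peaks reached lower strengths. The peak at 12677746 to 12678933 in the right end had a combined strength of 230, with 142 in replicate 1 and 203 in replicate 2. The centre's strongest, at 11347754 to 11348680, had 200 in the combined list, 111 in replicate 1 and 178 in replicate 2. It ranked 183 among all peaks of replicate 1 but 24 among those of replicate 2. When the strongest 50 alone were put in order, it stood at 33 in replicate 1 and 5 in replicate 2, the largest such difference. The next by that measure, the centre peak at 6912989 to 6913729 and the right-end peak at 13156769 to 13157480, were stronger in replicate 1, at 144 and 137, than in replicate 2, at 127 and 126. Near the right tip lay the peaks at 15089238 to 15090075, with 133 in replicate 1 and 151 in replicate 2, and at 15010248 to 15010965 with 149 and 163. The centre peak at 11021860 to 11022587 had 142 in replicate 1 and 152 in replicate 2, and the centre peak at 5543266 to 5544457 had 116 and 135.

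The left end was not without strong sites. Its strongest combined peak, at 385660 to 386567, had a strength of 142 in the combined list, 129 in replicate 1 and 134 in replicate 2, and ranked 20 on the chromosome. The peak at 1437371 to 1438485 followed with 134 in the combined list, 82.8 in replicate 1 and 127 in replicate 2. The third, at 2203977 to 2204648, had 131, 101 and 127 in the same lists. In replicate 1 the strongest peak was 145 in the left end, 145 in the centre and 269 in the right end, and in replicate 2 the strongest were 142, 178 and 282. The left-end values of 145 and 142 belonged to another site, the combined peak at 216340 to 217835. That peak had 115 in the combined list and ranked 57 on the chromosome, so the lists differed on the left end's strongest site.

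The next comparison was between the replicates. Of the 848 peaks, 498 overlapped a peak in both replicate lists by at least 1 bp, or 58.7% (55.3 to 62.1), against 56.1% of all combined peaks. The share on the other autosomes was 56.9% (55.3 to 58.4), and the difference of 1.86 percentage points did not pass the test (Fisher's exact test, adjusted p = 0.565). A further 229 peaks overlapped replicate 2 only, 10 overlapped replicate 1 only and 111 (13.1%, against 14.7% of all combined peaks) overlapped neither. Peaks in both lists had a median combined strength of 39.8, whereas the medians of the other classes were 5.62 (replicate 2 only), 4.51 (replicate 1 only) and 2.55 (neither). All 212 peaks of the strongest group were in both lists, as were 208 of 212 in the next, 77 of 212 in the one below and 1 of 212 in the weakest. Combined strength and replicate overlap come from the same libraries, so a rise of this kind is largely built in. The share in both lists was 51.3% in the left end, 61.4% in the centre and 58.2% in the right end. The largest of these differences, left end against centre, did not pass after adjustment (Fisher's exact test, p = 0.0291, adjusted p = 0.0801). Only 1 replicate 1 peak and 2 replicate 2 peaks of the chromosome had no combined partner. They lay at 9597839 to 9598030 in replicate 1 and at 1242540 to 1242868 and 10204636 to 10204956 in replicate 2, with strengths of 2.07, 2.48 and 2.11.

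At 502 sites a replicate 1 peak and a replicate 2 peak were each other's strongest partner. Their centres differed by a median of 16 bp, and 469 of 502 pairs (93.4%) lay within 100 bp, against 90.4% of pairs on the other autosomes. The median pair shared 89.4% of the bases that either peak covered. Over the full range strengths were ordered alike, with a Spearman's rho of 0.95 and a Pearson's r of 0.95 across the 502 pairs, which share 2 libraries and are not independent samples. Within narrower ranges rho was lower. It was 0.28 at replicate 2 strengths under 10, 0.79 at 10 to 50, 0.58 at 50 to 100 and 0.83 at 100 or more. The weakest pairs were thus only loosely ordered alike. The values differed in level. Median strength over the pairs was 14.1 in replicate 1 and 29.8 in replicate 2, and 475 of 502 pairs (94.6%, 92.3 to 96.4) were weaker in replicate 1. Replicate 1 strength was a median 0.56 times replicate 2 strength, and the ratio was 0.57, 0.54 and 0.57 in the left end, centre and right end. It varied with strength, though not steadily. The median ratio was 0.50 at the 74 pairs with a replicate 2 strength under 10 and 0.45 at the 257 pairs with 10 to 50. It was 0.62 at the 93 pairs with 50 to 100, and 0.88 at the 78 pairs with 100 or more. Replicate 2 strength is also the denominator of the ratio, and pairs needed a listed peak in both replicates, so these ratios are descriptions only.

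**Figure D4:**
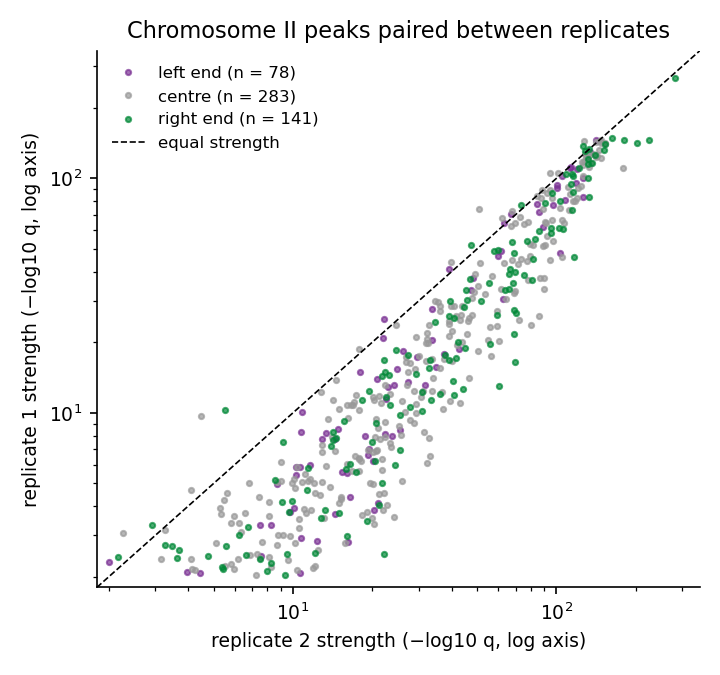
Strength (−log10 q, log axes) of 502 paired chromosome II peaks in replicate 1 (y axis) and replicate 2 (x axis), coloured by chromosome part; the dashed line marks equal strength. The points lie below the line at 475 pairs and approach it among the strongest, and the peak at the upper right has 269 in replicate 1 and 282 in replicate 2.

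Most sites were narrow. The median width on chromosome II was 448 bp, with the middle 50% between 349.75 and 612.25 bp, against 435 bp on the other autosomes. Across all combined peaks 7.84% were at least 1 kb wide. On II 63 of 848 were (7.43%, 5.76 to 9.41), against 7.23% (6.44 to 8.08) on the other autosomes, which did not pass the test (Fisher's exact test, adjusted p = 0.831). Of these 63, 7 lay in the left end, 42 in the centre and 14 in the right end, or 4.61%, 9.15% and 5.91% of each part's peaks. None of the 3 comparisons between parts passed (Fisher's exact test, adjusted p = 0.156, 0.227 and 0.652 for left end against centre, right end against centre and left end against right end). The 63 wide peaks covered 108 kb of the 471 kb under all peaks of the chromosome. Width went with strength (Spearman's rho 0.60 across the 848 peaks, a description of 1 list). At the other extreme, 14 peaks were under 100 bp wide, the shortest 3 bp. They had strengths from 2.02 to 5.89, and none of the 14 was in both replicate lists.

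Of the 5 widest sites, 4 were several peaks in the replicate lists. The widest, at 10541867 to 10550578 in the centre, spanned 8712 bp with a combined strength of 161. Replicate 1 gave 2 peaks there, at 10541876 to 10546328 and 10547559 to 10549770, with strengths of 74.3 and 14.9. Replicate 2 gave 4 peaks, the strongest at 10541870 to 10543939 (50.8) and 10548406 to 10549684 (27.4), so the highest replicate value there was 74.3, against 161 in the combined list. The next, at 11974134 to 11980453 in the right end, spanned 6320 bp with a combined strength of 171. Each replicate divided it into 3 peaks, the strongest of which had 47.9 in replicate 1 and 68.8 in replicate 2. The third, at 8741942 to 8747827 in the centre, spanned 5886 bp with only 33.8 in the combined list, and its strongest pieces had 6.19 in replicate 1 and 9.03 in replicate 2. The right-end peak at 11633961 to 11637731 spanned 3771 bp with 101 in the combined list, and its strongest pieces had 16.5 in replicate 1 and 69.8 in replicate 2. The fifth, at 9059844 to 9062642 in the centre, was 1 peak in each list, with 67.7 in the combined list, 14.1 in replicate 1 and 46.6 in replicate 2. In all, 7 of the 63 wide peaks overlapped more than 1 peak of a replicate, against 1 of 785 narrower ones. Of the 284 wide peaks of the other autosomes, 41 did so.

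**Figure D5:**
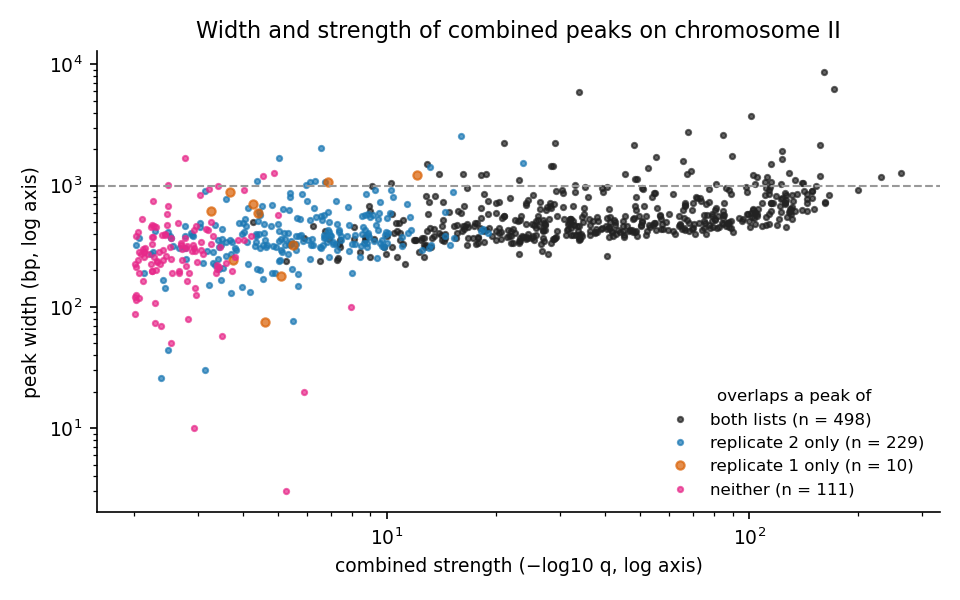
Width in bp against combined strength (−log10 q; both log axes) of the 848 combined peaks on chromosome II, coloured by the replicate lists they overlap; the dashed line marks 1 kb. The 498 peaks in both lists lie at the strong side (median strength 39.8) and the 111 in neither at the weak side (2.55).

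A peak of one replicate in some cases overlapped 2 peaks of the other, and is called divided here. There were 4 such replicate 1 peaks and 2 such replicate 2 peaks. The strongest of these 6 was the replicate 1 peak at 13198544 to 13200200, with a strength of 145. Replicate 2 had a peak with a strength of 2.16 at 13198760 to 13199309 and one of 224 at 13199533 to 13200235, within a combined peak at 13198069 to 13200232 with a strength of 157. Next in strength were the replicate 2 peak at 11633961 to 11636303 (69.8), given by replicate 1 as peaks of 9.75 and 16.5, and the replicate 1 peak at 10547559 to 10549770 (14.9), given by replicate 2 as peaks of 2.65 and 27.4. The other 3 divided peaks had strengths from 6.19 to 10.3. Among them, the replicate 2 peak at 8742919 to 8746750 and the replicate 1 peak at 8746420 to 8747863 overlapped each other. Each was thus counted as a piece of the other.

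The last comparison concerned spacing. The median gap between adjacent combined peaks was 9932 bp on chromosome II and 8077 bp on the other autosomes, with 6936 bp on III as the shortest and 10644 bp on V as the longest median. Within II it was 12972.5 bp in the left end, 9317 bp in the centre and 8838 bp in the right end. On II 7 of 847 gaps were over 100 kb, against 57 of 3926 on the other autosomes, where the longest was 341051 bp. Of the 7, 4 were in the left end (of 152 gaps), 2 in the centre (of 459) and 1 in the right end (of 236). The longest gap of II ranked 27 among those of the autosomes. On II the longest peak-free stretches of the combined list were 141086 bp at 1520196 to 1661281 and 140406 bp at 9416997 to 9557402, followed by 124688 bp at 3683330 to 3808017. Neither replicate had a peak whose midpoint lay in any of these 3. Among 153 windows of 100 kb, 1 held no peak and the median was 5. The fullest, from 5300001 to 5400000, held 15 combined peaks, 12 of them in both replicate lists. The next, from 2900001 to 3000000, lay in the otherwise sparse left end and held 14, of which 6 were in both. Of the 3 windows with 12, the window from 4900001 to 5000000 is the first along the chromosome and had 7 in both.

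By the replicate 1 list, close neighbours were less common on chromosome II than on the other autosomes, and the other lists gave no difference that passed the test. Of all combined peaks, 20.2% had another peak within less than 1 kb. On II the share was 19.2% (163 of 848, 16.6 to 22.0), against 21.7% (851 of 3930, 20.4 to 23.0) on the other autosomes, which did not pass the test (Fisher's exact test, adjusted p = 0.316). In replicate 2 the shares were 14.9% and 16.4% (Fisher's exact test, adjusted p = 0.565). In replicate 1 they were 6.80% on II and 13.9% on the other autosomes (Fisher's exact test, adjusted p = 2.31e-05), where the single autosomes ran from 10.8% on I to 18.8% on IV. From left to right, 0%, 5.48% and 13.2% of replicate 1 peaks on II had such a neighbour, against 19.6%, 12.2% and 11.9% on the other autosomes. The right end of II was thus not lower, and the parts were not tested. The left-end share on II was 0 of 79 peaks, which allows a share of up to 3.80%. Members of a pair are counted together, so these p-values are too small.

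Close peaks were seldom pieces of 1 replicate peak. The 163 peaks formed 88 adjacent pairs less than 1 kb apart, with a median gap of 560.5 bp and a shortest gap of 209 bp. Only 1 of the 88 pairs was covered by a single replicate peak, and 17 were separate peaks in both replicates. In the other 70, at least 1 member was missing from at least 1 replicate list. The strongest pair lay in the right end, with peaks at 12677746 to 12678933 and 12679182 to 12680175, 248 bp apart. The first had a combined strength of 230, with 142 in replicate 1 and 203 in replicate 2. The second had a combined strength of 152, with 121 and 132 in the same replicates. The chromosome's strongest peak also had such a neighbour, at 14249408 to 14250655, 375 bp away, with 67.3 in the combined list, 19.7 in replicate 1 and 56.1 in replicate 2.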

How the data were processed

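The authors deposited 1 peak list for each of 2 ChIP libraries and 1 combined list. Per the file headers, positions are on WormBase WS220, and the source column of the deposited files names PeakSeq as the peak caller. The deposited q-value of each peak, a p-value corrected for multiple testing and never above 0.01, is the only measurement. The aligner, PeakSeq version, use of input and the way the list was combined were not given in the sources used here. File comments record a liftover that changed the length of 3 chromosome II peaks in each list.

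Strength was −log10 of the deposited q-value. A peak belonged to the part holding its midpoint. Peaks of different lists matched at 1 bp of overlap, and the strongest partner was kept. Shares were compared by two-sided exact binomial or Fisher's exact tests (SciPy 1.17.1), with Benjamini-Hochberg adjustment over 11 tests within chromosome II, 5 against the other autosomes pooled and 4 of the ends against single autosomes, at a threshold of 0.05. All count peaks, which are not independent. Exact 95% intervals are by Clopper-Pearson, and they and the limit of 3 counts for a share of 0 cover counting error only. The functions were tested on simulated data. Read depth is unknown.

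Peaks named by position were the 10 strongest in both lists, the 3 strongest of each part, the 5 widest, the 3 longest gaps, the fullest windows of 100 kb, replicate peaks without a combined partner, the strongest divided replicate peaks and those whose order differed most among the strongest 50. The peaks at the part borders, the strongest close pairs and the left end's strongest site by the replicate lists were added after their values were seen. The sites and tests were chosen with earlier results of these data known. Alternatives were single lists, stronger peaks, peaks in both lists, thinned runs, other spans, parts and thresholds.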

Additional observations from a re-analysis of the deposited data

Results flagged for a closer look

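As labelled left and right, the balance between the ends of chromosome II differed from that of 3 of the 4 other autosomes. The odds of a left-end rather than a right-end peak on II were 0.40 times those on IV, 0.45 times those on V and 0.62 times those on I (Fisher's exact test, two-sided, adjusted p = 1.12e-10, 7.98e-07 and 0.00107 over 4 tests). The direction was the same in both replicate lists for all 3. The left and right labels follow the usual map and carry no homology between chromosomes, so the difference concerns the maps as drawn. Whether the imbalance differed in size, whichever end was sparser, was not tested.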

How the results depend on the processing

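Alternative settings gave 108 values for 23 results. In 90 the direction and the outcome of the test held (for values with no test, the interval), 5 newly passed, 2 no longer passed and 11 changed sign. All 11 sign changes were in differences that did not pass any test. With 1 peak per run, the left-to-right ratio of II was 0.80 and its odds against I 0.77, neither passing, the share of strong peaks against other autosomes was -1.76 percentage points, the share 1 kb or wider was -0.75 against other autosomes, 0.051 for left end against centre and 2.01 for right end against centre. That thinning removes more peaks where they are dense. The centre share passed the threshold in the stronger 50% of peaks (56.2%) and in peaks of both lists (56.6%). With 1 peak per run it was 52.0% and did not pass (exact binomial test, adjusted p = 0.600). With parts of equal length, the odds of II against III were 0.77 and passed. In the stronger 50%, the share in both lists was 0.62 points higher in the left end than in the centre and 1.87 points higher than in the right end, and the share 1 kb or wider was -0.82 points against other autosomes. It was -0.11 points at 2 kb. Among peaks in both lists, the strong share was -0.88 points against other autosomes.

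Without either replicate, the centre share was 54.5% to 56.7%, the left-to-right ratio 0.55 to 0.62, the left end minus centre difference in strong peaks -6.77 to 3.09 points, the right end minus centre difference in wide peaks -0.93 to 0.095 points and the neighbour difference against other autosomes -7.06 to -1.53 points. The causes were not tested. With depth unknown, the number of weak sites missed by each list was not assessed. No paired analysis was possible because only the ChIP libraries have peak lists.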
